A study of Mus musculus with 6 samples.

Results

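Sarcomeric myosin heavy chains are the motor proteins of the thick filament in striated muscle. The genes Myh1, Myh2, Myh3, Myh4, Myh6, Myh7, Myh7b and Myh8 were taken by symbol from a table of normalized counts for 54393 mouse genes, and each of the 8 symbols matched 1 row. All 8 were among the 16031 genes tested, which averaged 10 or more normalized counts in the 6 samples. A normalized count is an estimated number of reads for a gene after the authors brought the libraries to a common scale.

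The samples were tibialis anterior (TA) muscles, a muscle at the front of the shin that lifts the foot, from adult mice. There were 3 muscles in the WT group, whose titles begin with C57 and number them 1, 3 and 4, and 3 in the Dock3 KO group, numbered 1 to 3. Dock3 encodes an activator of the small GTPase Rac, and the comparison asks which transcripts differ in adult muscle without it. How the knockout allele was made, and whether the muscles of a group came from different animals, is not given in the sources used here, so p-values measure the spread between muscles, which may in part be technical.

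Each myosin molecule carries a pair of heavy chains, and the isoform sets how fast the motor splits ATP and how fast the fibre shortens. Adult mouse limb muscle uses Myh4 (type IIB, the fastest), Myh1 (IIX), Myh2 (IIA) and Myh7 (slow, type I, which is also the beta chain of the heart). Myh3 is the embryonic and Myh8 the perinatal chain, both made again in regenerating fibres. Myh6 is the alpha chain of the heart and is also found in muscle spindles, the stretch sensors within muscle, and Myh7b is a divergent, slow-type chain. The mouse TA is known as a fast muscle.

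On GRCm38, in the GENCODE M21 annotation, Myh3 (67078300 to 67102291), Myh2 (67171027 to 67197517), Myh1 (67200052 to 67224575), Myh4 (67238029 to 67260446) and Myh8 (67277124 to 67308634) follow each other on the plus strand of chromosome 11. Myh6 (54941921 to 54966927) and Myh7 (54970684 to 54994626) lie side by side on the minus strand of chromosome 14, and Myh7b (155611212 to 155634307) is on the plus strand of chromosome 2. The longest coding transcripts of the 8 genes are of like length, 6016 to 6230 bases.

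The coding sequences are also alike, which bears on how reads can be told apart. Aligned coding bases were 90.1% identical between Myh4 and Myh1, 91.0% between Myh1 and Myh2, 91.7% between Myh6 and Myh7, and 68.5% to 71.7% between Myh7b and the other 7 genes. Of the runs of 31 bases in the longest coding transcript, 69.6% were found in no transcript of another gene for Myh4, 60.3% for Myh1, 61.5% for Myh2, 67.5% for Myh8, 68.1% for Myh7, 67.5% for Myh6, 88.8% for Myh3 and 99.8% for Myh7b. Myh1 shared most with Myh2, 28.1% of its runs, and Myh6 shared 32.3% of its runs with Myh7. A read from a shared run is divided between the genes by the counting software, so low values of Myh8, Myh6 and Myh7 are uncertain beside a relative with a higher value.

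The longest stretch of coding sequence that is the same in Myh4, Myh1, Myh2 and Myh8 spans 109 bases, and a read inside it fits all 4. It is shown from exon 23 of Myh4, chr11:67252224-67252332 on the plus strand of GRCm38:
shared run: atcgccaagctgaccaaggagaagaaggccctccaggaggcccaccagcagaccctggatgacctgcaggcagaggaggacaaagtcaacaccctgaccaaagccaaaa

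Reads over a stretch where coding bases differ tell the isoforms apart. Of stretches without gaps within a single exon, the 60 coding bases that differ most among the same 4 genes are shown. They begin at coding base 1836 in each gene and are compared position by position, so shifted bases also count as different. Capitals in the Myh4 line mark the 30 positions where the 4 genes are not all the same, and capitals in the other lines mark bases that differ from Myh4 (18 in Myh1, 14 in Myh2 and 23 in Myh8). The stretch is in exon 15 of Myh4 (chr11:67248694-67248753) and in exon 16 of Myh1 (chr11:67209101-67209160), Myh2 (chr11:67181283-67181342) and Myh8 (chr11:67289775-67289834), all on the plus strand.
Myh4: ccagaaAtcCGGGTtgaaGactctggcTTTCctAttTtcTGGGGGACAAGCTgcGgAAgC
Myh1: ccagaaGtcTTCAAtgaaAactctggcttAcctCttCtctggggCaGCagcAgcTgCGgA
Myh2: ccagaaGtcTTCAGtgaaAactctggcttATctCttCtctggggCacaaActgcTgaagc
Myh8: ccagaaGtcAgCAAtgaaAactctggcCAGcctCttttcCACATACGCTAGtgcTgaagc

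The promoters of these 4 genes also share sequence, which is shown because their levels in this muscle lie far apart. Promoters of all 8 genes were found in a table from RefSeq (GRCm38.p6). For Myh4 and Myh1 the RefSeq start is not the GENCODE start given above. In the 250 bases before the RefSeq start, the Myh4, Myh1, Myh2 and Myh8 promoters hold 2 common runs of 9 bases or more on the plus strand, in capitals here. The run of 14 bases was present on that strand in 4 of 32851 promoters (0.0122%), and the run of 9 bases in 31 (0.0944%). None of the other 4 myosin promoters held either run. The stretch from the first run to the second lies at chr11:67237625-67237667 for Myh4, chr11:67199886-67199955 for Myh1, chr11:67170854-67170915 for Myh2 and chr11:67277020-67277083 for Myh8.
Myh4: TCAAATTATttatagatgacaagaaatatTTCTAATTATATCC
Myh1: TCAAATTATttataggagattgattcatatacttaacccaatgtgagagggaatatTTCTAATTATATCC
Myh2: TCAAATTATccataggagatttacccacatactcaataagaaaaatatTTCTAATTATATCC
Myh8: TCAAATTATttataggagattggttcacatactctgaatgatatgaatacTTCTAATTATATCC

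In the same 250 bases, searched on both strands, the MEF2 consensus was present in Myh4, Myh1 and Myh8, against 2.92% of all promoters. The letters TATAAA were present in Myh4, Myh1, Myh3 and Myh8, against 12.4% of all promoters, and CANNTG in 6 of the 8 genes, against 66.2%. These are matches of letters in a window and no measurement of binding.

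The libraries summed to between 23520223 and 33393950 normalized counts, with 23860 to 25185 genes above 0. From the low values, 1 read was worth about 0.775 to 1.52 normalized counts, which gives an estimated 288049 to 542155 reads for Myh4 per sample. Dock3, the check of the genotype labels, was at 169, 161 and 118 normalized counts in the WT muscles against 22.4, 1.78 and 1.54 in the Dock3 KO muscles replicates 1 to 3. The values assigned to Gm42418 and Lars2 were very high. They made up 17.9% and 20.3% of Dock3 KO replicates 1 and 2 and 3.00% to 3.64% of the other 4 libraries. Whether these values measure RNA of the 2 genes or a difference between the libraries was not tested. The part of Gm42418 and Lars2 in the results below was not tested beyond the alternatives given. The muscle markers Acta1, Ckm, Tnnt3, Pvalb and Atp2a1 were high in all 6 samples, the lowest value among them being 116680 normalized counts for Tnnt3.

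The adult fast chains made up nearly the whole of myosin heavy chain RNA in both genotypes, and Myh4 alone most of it. Of the summed normalized counts of the 8 genes, Myh4, Myh1 and Myh2 together held 99.9% in each sample. None of the 8 genes passed the test between genotypes, and no share separated the groups. The 8 genes together made up 2.14%, 1.80% and 1.52% of all normalized counts in WT replicates 1, 3 and 4 and 1.39%, 1.92% and 2.01% in Dock3 KO replicates 1 to 3, and these groups overlap. With Gm42418 and Lars2 left out of the total, they made up 2.22%, 1.87% and 1.56% in WT. In Dock3 KO they then made up 1.69%, 2.41% and 2.09%, which again overlap. The WT and Dock3 KO means were 1.82% and 1.77% of the whole, and 1.88% and 2.06% without Gm42418 and Lars2.

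Myh4, the IIB chain, was at 480295, 356264 and 351120 normalized counts in the WT muscles 1, 3 and 4, against 403787, 552974 and 397414 in the Dock3 KO muscles 1 to 3. Its share of the 8 genes was 89.5%, 83.95% and 87.4% in WT and 87.01%, 87.3% and 78.6% in Dock3 KO. Dock3 KO replicate 3 was the lowest of the 6 samples in share, while replicates 1 and 2 lay inside the WT range. The mean share was 86.9% ± 2.81 in WT and 84.3% ± 4.92 in Dock3 KO (n = 3 each, SD), differing by -2.65 points with an exact two-sided permutation p of 0.5. With 3 against 3 samples that test cannot give less than 0.1, so no share could pass 0.05.

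Myh1, the IIX chain, was at 48594, 52985 and 42480 normalized counts in the WT muscles against 48892, 65594 and 91066 in the Dock3 KO muscles. Its share was 9.06%, 12.5% and 10.6% in WT and 10.5%, 10.4% and 18.02% in Dock3 KO. Dock3 KO replicate 3 was the highest by level and by share, and the groups overlap in both. The mean share was 10.7% ± 1.72 in WT and 12.97% ± 4.37 in Dock3 KO (n = 3 each, SD), differing by 2.26 points (exact permutation p = 0.7). Without Dock3 KO replicate 3 the sign of both differences turns, to 0.19 points for Myh4 and -0.26 points for Myh1. With replicate 3 as the only Dock3 KO sample they were -8.33 points for Myh4 and 7.31 points for Myh1. Dock3 KO replicates 1 and 2 are also the libraries with the large part of Gm42418 and Lars2. The bearing of that on the shares was not tested.

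Myh2, the IIA chain, was at 7409, 14688 and 7831 normalized counts in the WT muscles against 11107, 14496 and 16582 in the Dock3 KO muscles. Its share was 1.38%, 3.46% and 1.95% in WT and 2.39%, 2.29% and 3.28% in Dock3 KO, and WT replicate 3 held the largest share of the 6. The mean share was 2.26% ± 1.08 in WT and 2.65% ± 0.545 in Dock3 KO (n = 3 each, SD), differing by 0.39 points (exact permutation p = 0.6), which turns to -0.051 without WT replicate 1. Myh1 and Myh2 went up and down together over the 6 samples (Pearson's r = 0.79 on the log2 scale, n = 6), and Myh4 followed neither closely (r = 0.25 with Myh1 and 0.047 with Myh2). These 6 points share the 2 genotype groups and the scaling of each library. Myh1 also shares 28.1% of its runs of 31 bases with Myh2, and the part of shared reads in their correlation was not tested.

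**Figure D1:**
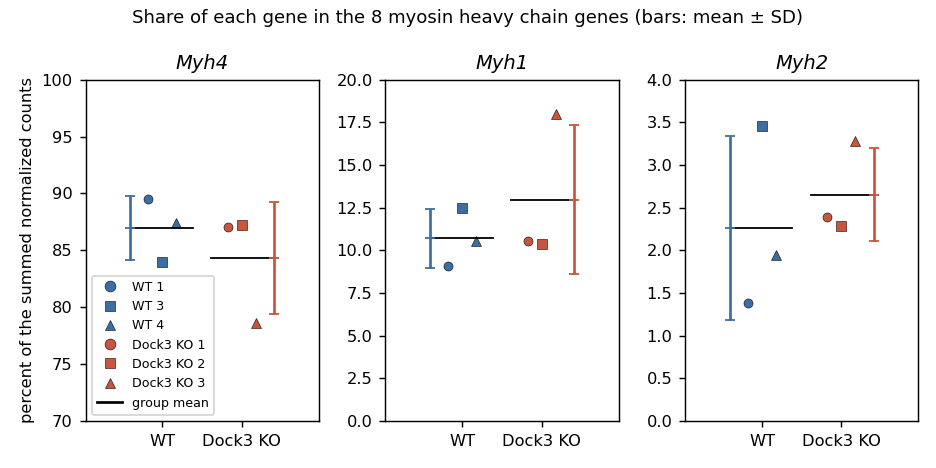
Share of Myh4, Myh1 and Myh2 in the summed normalized counts of the 8 myosin heavy chain genes (percent, with a separate axis for each gene, that of Myh4 starting at 70), for 3 WT and 3 Dock3 KO muscles. Symbols are samples, horizontal lines group means and vertical bars SD. Dock3 KO replicate 3 stands lowest for Myh4 at 78.6% and highest for Myh1 at 18.02%, and the genotypes overlap for each gene.

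The 5 remaining genes together held 0.0466%, 0.101% and 0.110% of the summed counts in WT and 0.0613%, 0.0980% and 0.0870% in Dock3 KO. At these levels the number of reads is small: Myh7b in Dock3 KO replicate 1 rested on about 9.1 reads and Myh7 in the same sample on about 13.1, far fewer than for Myh4.

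The slow chain Myh7 was at 16.3, 69.7 and 83.2 normalized counts in the WT muscles against 18.4, 323 and 91.0 in the Dock3 KO muscles. Dock3 KO replicate 2 stood far above the other 5 samples, and WT replicate 1 and Dock3 KO replicate 1 far below. The highest sample was 19.9-fold above the lowest, the widest spread among the 8 genes. Its log2 difference of 0.83 becomes -0.15 without Dock3 KO replicate 2. That library was also the highest of the 6 for the slow light chains Myl3 (124, against 26.7 to 81.8 in the others) and Myl2 (257, against 102 to 199), and for the slow calcium pump gene Atp2a2 (1095, against 629 to 1066). It was also the highest, by little, for the slow troponin Tnni1 (51.4, against 50.5 in WT replicate 3). Among other genes of slow fibres, it was not the highest for the troponins Tnnt1 (57.3, against 102 in WT replicate 4) and Tnnc1 (58.6, against 74.7). Nor was it for the tropomyosin Tpm3 (745, against 922), Casq2 (295, against 377 in WT replicate 3), Csrp3 or Ankrd2. Myh7b was at 16.5, 55.6 and 39.5 in the WT muscles against 12.8, 37.2 and 33.2 in the Dock3 KO muscles, lowest, as Myh7 was, in WT replicate 1 and Dock3 KO replicate 1.

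The developmental chains were low in all samples. Myh3, the embryonic chain, was at 65.9, 72.3 and 160 normalized counts in the WT muscles against 47.5, 57.7 and 90.1 in the Dock3 KO muscles, with WT replicate 4 the highest. Myh8, the perinatal chain, was the least variable of the 8, at 94.4, 73.5 and 90.6 in WT and 88.6, 107 and 87.6 in Dock3 KO. The levels of both genotypes overlap for each of these genes. Over the 6 samples Myh8 went with Myh4 (Pearson's r = 0.82 on the log2 scale, n = 6), under the same limits as for Myh1 and Myh2. The part of reads from shared runs in this was not tested.

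The cardiac chain Myh6 was at 56.98, 156 and 68.97 normalized counts in the WT muscles against 117, 95.5 and 138 in the Dock3 KO muscles. Of 6 heart markers, Nppb was at 0 in all 6 samples, and the highest value was 1.78 normalized counts for Nppa, 3.09 for Myl7, 7.67 for Mybpc3, 21.7 for Tnni3 and 39.1 for Ryr2. Of 4 markers of spindle fibres none passed, and their log2 differences did not have one sign (Egr3 0.59, Etv1 0.57, Etv4 -0.10 and Etv5 -0.55). Egr3 was at 22.3, 49.9 and 17.5 in the WT muscles against 117, 20.5 and 28.3 in the Dock3 KO muscles. Over the 6 samples Myh6 went with Myh2 (Pearson's r = 0.88 on the log2 scale, n = 6), under the same limits as above.

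Levels of different genes were compared as normalized counts per kb of transcript. In WT the order of means was Myh4 (65807), Myh1 (7897), Myh2 (1640), Myh3 (16.5), Myh6 (15.4), Myh8 (14.01), Myh7 (9.05) and Myh7b (6.04). Myh4 stood 8.33-fold above Myh1, Myh1 4.82-fold above Myh2, and Myh2 99.4-fold above Myh3, and in these 3 steps the WT samples of neighbouring genes did not overlap. From Myh3 down, each gene overlapped its neighbour in the order. In Dock3 KO the first 3 places were the same (75032, 11267 and 2312 per kb), followed by Myh7 (23.1), Myh6 (19.1), Myh8 (15.4), Myh3 (10.8) and Myh7b (4.50). Of these low genes Myh3 (7.87 to 14.9) lay wholly below Myh6 (15.6 to 22.6), and Myh7b (2.07 to 6.04) wholly below Myh3, in the Dock3 KO samples. By this measure Myh4 ranked between 9 and 12 among nuclear protein-coding genes in each sample, Myh1 between 34 and 91, and Myh2 between 256 and 575.

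**Figure D2:**
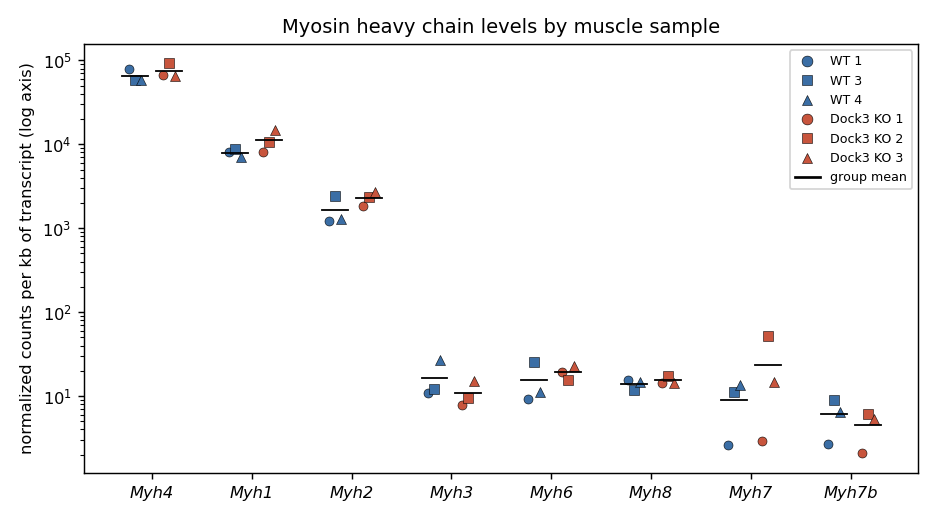
Level of each myosin heavy chain gene in normalized counts per kb of its longest coding transcript, on a log axis, in 3 WT and 3 Dock3 KO muscles, with genes in the order of their WT means. Myh4, Myh1 and Myh2 lie well above the 5 low genes, and Myh7 shows the widest spread, with Dock3 KO replicate 2 on top.

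The levels were then tested with limma over all 16031 genes, on log2(normalized count + 1). Among the 8 genes 0 passed an adjusted p of 0.05 and 0 had an unadjusted p under 0.05 (limma), against 1.03% and 10.5% of all genes tested. The smallest unadjusted p were 0.058 for Myh2 and 0.064 for Myh1 (limma), and under some alternatives these were below 0.05. In none of the 8 did the groups separate without overlap, against 16.2% of all genes tested. The log2 difference, Dock3 KO minus WT, was above 0 for 6 of the 8 with a median of 0.31, beside 49.0% above 0 and a median of -0.0073 over all genes tested.

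For the 3 abundant chains the intervals bound what these samples could have missed. Myh4 differed by 0.19 (95% interval -0.40 to 0.78, limma adjusted p = 0.879), which in folds is 1.14 with bounds of 0.756 and 1.72. That sign depends on the scaling: with each library rescaled to the same total the difference was -0.088, where the median of all genes moved to -0.28, and with quantile normalization it was -0.0040. Myh1 differed by 0.47 (-0.034 to 0.98, adjusted p = 0.511) and Myh2 by 0.55 (-0.022 to 1.12, adjusted p = 0.4998), both with limma, and these kept their sign under all 18 alternatives. Over those the Myh1 difference ran from 0.20 to 0.98 and the Myh2 difference from 0.27 to 0.88. Without Dock3 KO replicate 3 that of Myh1 was 0.24, and without WT replicate 3 that of Myh2 was 0.86. A rise of Myh1 by as much as 1.97-fold or of Myh2 by 2.17-fold is within the intervals.

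Among the low genes the intervals of Myh7, Myh7b, Myh3 and Myh6 were wider than those of the abundant chains, and that of Myh8 was not. Intervals of the log2 difference ran from -1.20 to 2.86 for Myh7, from -1.60 to 0.83 for Myh7b, from -1.38 to 0.31 for Myh3, from -0.37 to 0.64 for Myh8 and from -0.36 to 1.24 for Myh6. Their estimates were 0.83, -0.39, -0.54, 0.13 and 0.44 in the same order. Myh8 also turned below 0 (-0.14) with the libraries rescaled to the same total, where the median of all genes moved to -0.28. Rescaled to the total without Gm42418 and Lars2, Myh8 was at 0.032.

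**Figure D3:**
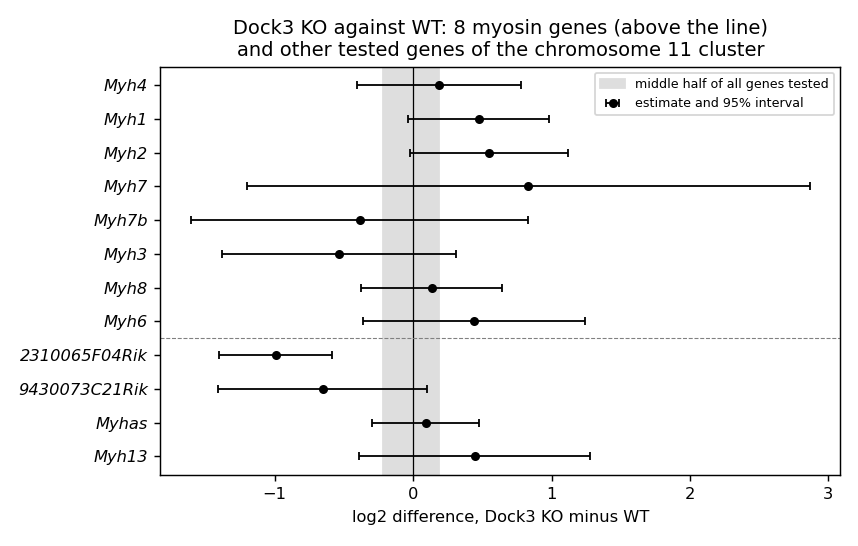
Log2 difference between Dock3 KO and WT (horizontal axis, on the scale of log2(normalized count + 1)) for the 8 myosin heavy chain genes and, below the dashed line, the 4 other tested genes of the chromosome 11 cluster. Points are limma estimates, bars 95% intervals, and the grey band runs between the quartiles of all genes tested. All 8 myosin intervals include 0, and that of 2310065F04Rik lies wholly below it, from -1.40 to -0.59.

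A factor common to all genes of a library cancels in ratios within it. Whether the authors used 1 factor per library is not given in the sources used here, and factors that differ by gene would not cancel in these ratios or in the shares. The log2 ratio of Myh1 to Myh4 was -3.31, -2.75 and -3.05 in WT and -3.05, -3.08 and -2.13 in Dock3 KO, a mean difference of 0.28 (exact permutation p = 0.6). That of Myh2 to Myh4 was -6.02, -4.60 and -5.49 in WT and -5.18, -5.25 and -4.58 in Dock3 KO, a difference of 0.36 (exact permutation p = 0.4). That of Myh7 to Myh4 differed by 0.65 (exact permutation p = 0.6). In each ratio the groups overlap, and for Myh1 the largest value is again that of Dock3 KO replicate 3.

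One RNA of the chromosome 11 cluster was lower in Dock3 KO. From Myh3 to Myh13, the chain of eye muscles, the cluster spans 293.3 kb and holds 11 annotated genes, 9 of them tested. Of these 9, 1 passed the test, 2310065F04Rik, against 1.03% of all genes tested. It is a long intergenic noncoding RNA also called linc-MYH, on the minus strand between Myh3 and Myh2 (67112461 to 67120080), and was chosen for its position after the files were read.

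2310065F04Rik was at 2638, 3423 and 3870 normalized counts in the WT muscles against 1840, 1827 and 1313 in the Dock3 KO muscles. Every Dock3 KO sample lay below every WT sample. The means were 3310 ± 624 and 1660 ± 301 (SD, n = 3 each), for a log2 difference of -0.99 (standard error 0.182, limma adjusted p = 0.0343). Its direction was the same under 18 of 18 alternatives, and it passed in 9 of them. It did not pass with a prior without trend, the replicate block or the Gm42418 covariate (limma adjusted p = 0.210, 0.124 and 0.0903). When 1 sample was left out it passed only without WT replicate 1, and the adjusted p of the other 5 such fits was 0.0512 to 0.144 (limma). Without both Dock3 KO replicates 1 and 2 the log2 difference was -1.32 (limma adjusted p = 0.154).

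An antisense RNA that overlaps the end of Myh2, 9430073C21Rik, was at 56.5, 54.8 and 59.99 normalized counts in the WT muscles against 22.9, 42.2 and 47.8 in the Dock3 KO muscles. The groups did not overlap, with a log2 difference of -0.65 (limma adjusted p = 0.560). Myhas, an RNA antisense to Myh1 that starts between Myh1 and Myh4, was at 1146, 865 and 1045 in the WT muscles against 1229, 1187 and 858 in the Dock3 KO muscles, with a log2 difference of 0.091 (limma adjusted p = 0.921) whose sign turned in 6 of 18 alternatives, rescaling to the same total among them. Myh13 was at 65.6, 129 and 111 in the WT muscles against 98.5, 103 and 238 in the Dock3 KO muscles, highest, like Myh1, in Dock3 KO replicate 3. The libraries keep strand, but whether the counting used it is not given in the sources used here, so reads of overlapping genes on opposite strands may not be told apart.

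Of the other genes that overlap a member, Trpc4ap meets the end of Myh7b on the opposite strand over 37 bases and was at 1930 to 2221 normalized counts. The annotated precursors of the muscle microRNAs Mir208a, Mir208b and Mir499, which lie within Myh6, Myh7 and Myh7b, were at 0 in all 6 samples, as were Mhrt, Gm31251, Gm29015, Gm49130 and Mir6923. Gm17428, within Myh7, was at 1.40 in Dock3 KO replicate 1 and at 0 elsewhere.

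**Figure D4:**
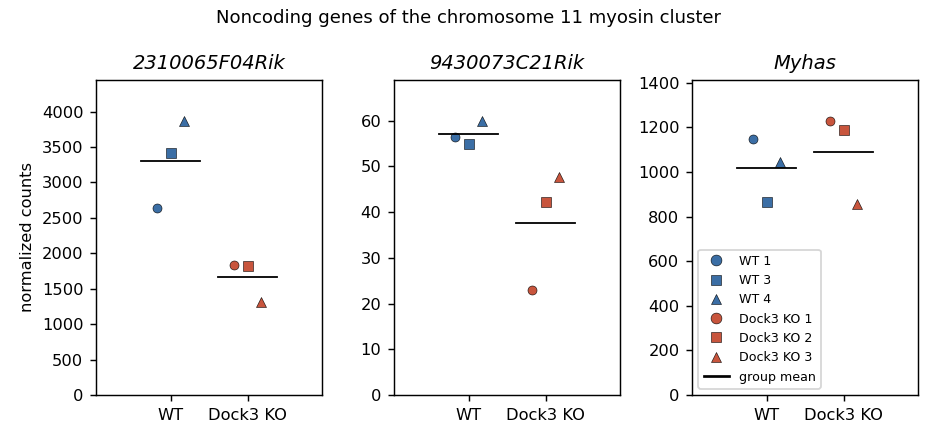
Normalized counts of the 3 tested noncoding genes of the chromosome 11 cluster in 3 WT and 3 Dock3 KO muscles. Each axis starts at 0 and lines are group means. The Dock3 KO samples of 2310065F04Rik, 1313 to 1840, lie below the WT samples, 2638 to 3870, while those of Myhas overlap.

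Genes that work with the heavy chains were counted by lists. None of 5 tested class II myosin heavy chains outside the 8, of 8 myosin light chains, of 14 thick filament partners and chaperones, of 8 fast fibre genes, of 8 slow fibre genes or of 32 transcriptional regulators of fibre type passed the test (limma). At an unadjusted p under 0.05 there were 0, 0, 1, 0, 1 and 5 genes in the same order, against 10.5% of all genes tested. Medians of the log2 differences were -0.023, 0.062, 0.079, -0.037, 0.049 and 0.070, beside -0.0073 over all genes tested, and 2, 4, 9, 3, 4 and 20 genes lay above 0. Among the 32 regulators, 4 lay wholly above the WT range and 1 wholly below it, against 7.6% and 8.65% of all genes tested, and the 5 together are a share near the 16.2% of all genes.

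The genes with the smallest p of each of these lists are named by rule, and none passed. They were Myh13 (0.45) and Myh10 (-0.24), a nonmuscle chain, among heavy chains, and Myl4 (0.48), an embryonic light chain, and Mylk2 (-0.19), the kinase of the regulatory light chain. Mybph (0.95) and Myom1 (0.19) are proteins of the thick filament, and Casq1 (-0.30) and Pvalb (-0.14) buffer calcium in fast fibres. Ankrd2 (0.65) and Csrp3 (0.41) are strain-responsive proteins of slow fibres, and Thrb (0.50), a thyroid hormone receptor, is a regulator of fibre type. Each value is a log2 difference.

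The list of immature and regenerating fibre genes, which are the usual company of Myh3 and Myh8, held 1 gene that passed, and the other 8 tested genes did not. The list was chosen with some of its values known, so its direction is not independent evidence. The gene that passed, Ncam1, is a cell adhesion molecule of regenerating and denervated fibres, and 0.586% of all genes tested were called lower. At an unadjusted p under 0.05 (limma) there were 7 of 9, against 10.5% of all genes tested. Of these 7, Ankrd1 was higher in Dock3 KO and the others lower. The median log2 difference was -0.98, with 2 genes above 0, Ankrd1 (1.11) and Myl4 (0.48). In 6 genes Dock3 KO lay wholly below the WT range, against 8.65% of all genes tested.

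Ncam1 was at 210, 209 and 144 normalized counts in the WT muscles against 93.7, 78.4 and 64.0 in the Dock3 KO muscles, a log2 difference of -1.24 (standard error 0.242, limma adjusted p = 0.0464). It fell in Dock3 KO, but passed in 6 of 18 alternatives and in none of the 6 fits that each left out 1 sample (limma adjusted p 0.0514 to 0.210). Its adjusted p (limma) was 0.227 with the Gm42418 covariate, 0.131 with a prior without trend and 0.0933 with the replicate block. Actc1, the cardiac actin of developing muscle, was at 1313, 548 and 1168 in the WT muscles against 287, 461 and 372 in the Dock3 KO muscles (limma adjusted p = 0.0939). Tnnt2, the troponin T of embryonic muscle, was at 57.9, 55.2 and 71.8 in the WT muscles against 39.5, 24.7 and 29.0 in the Dock3 KO muscles (limma adjusted p = 0.254). Mymx, a myoblast fusion protein, was at 8.61, 41.7 and 26.3 in the WT muscles and at 0 in each Dock3 KO muscle (limma adjusted p = 0.0544).

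Beside these, the estimate for Myh3 was -0.54, with groups that overlap and an interval that includes 0. The difference between Myh3 and these genes was not tested. Ankrd1, a strain-responsive protein, was at 182, 183 and 285 in the WT muscles against 335, 343 and 847 in the Dock3 KO muscles, without overlap (limma adjusted p = 0.243). Summed satellite cell markers, Pax7, Myf5 and Calcr, were at 99.8 to 121 normalized counts in WT and at 52.7 to 109 in Dock3 KO, with Pax7 at 71.0, 19.4 and 24.6 in Dock3 KO replicates 1 to 3, and their part in these values was not tested. In a whole muscle, fewer cells of a type and less RNA per cell cannot be told apart.

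**Figure D5:**
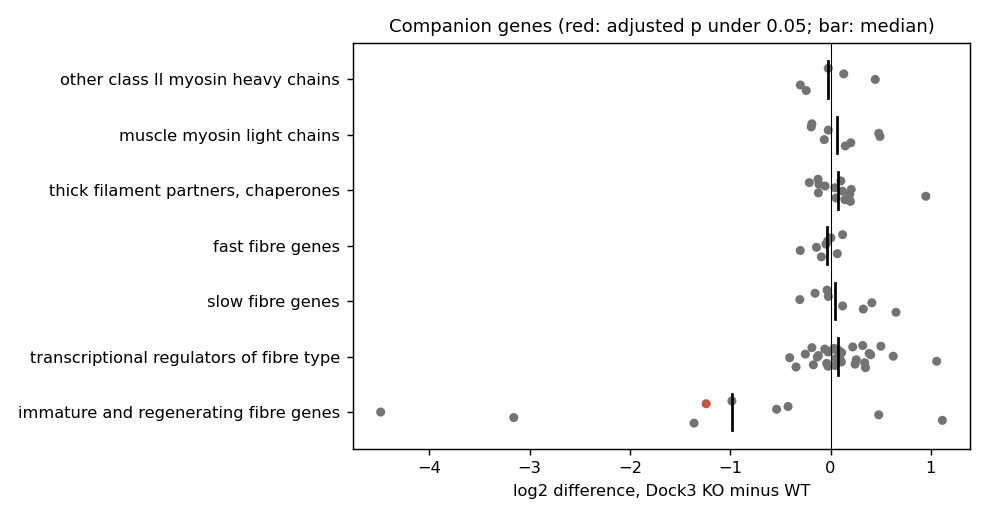
Log2 difference between Dock3 KO and WT (horizontal axis) for each tested gene of the 7 companion lists. Points are genes, black bars medians of the lists, and red marks an adjusted p under 0.05 (limma). Ncam1 at -1.24 is the red point, and the median of the immature fibre list lies at -0.98 while the other 6 medians lie between -0.037 and 0.079.

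The genes whose pattern over the 6 samples was most like that of a member were taken from 9535 protein-coding genes averaging 100 or more normalized counts, by Pearson's r of log2 values. With so many genes and 6 samples that share genotype and scaling, high values are a description. For Myh1 they were Xirp1, Lztr1 and Prrg3 (r = 0.995, 0.994 and 0.986). Xirp1, an actin-binding protein of injured or strained fibres, was at 1318, 1345 and 870 in the WT muscles against 1269, 2795 and 7217 in the Dock3 KO muscles, highest in the sample with the most Myh1. For Myh2 they were Hdac10, Ubap2 and Bag6 (0.995, 0.987 and 0.987), for Myh4 Pank3, Klhl31 and Jph1 (0.994, 0.993 and 0.989), and for Myh7 Tent5a, Pigo and Calr (0.988, 0.981 and 0.980). Jph1, which holds the sarcoplasmic reticulum to the transverse tubules, was at 6999, 5507 and 5309 in the WT muscles against 6257, 8310 and 6295 in the Dock3 KO muscles, with its top values, as for Myh4, in Dock3 KO replicate 2 and WT replicate 1.

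The remaining marker lists give the other cells in these muscles. Summed over each list, adipocyte markers were at 188 to 1122 normalized counts in WT and 375 to 822 in Dock3 KO, red cell markers at 28542 to 54916 and 36950 to 97653, Schwann cell markers at 620 to 945 and 659 to 829, macrophage markers at 1008 to 1234 and 852 to 1052, endothelial markers at 3081 to 4024 and 2692 to 3565, and fibroblast markers at 23516 to 26012 and 24122 to 29423. Spindle markers were at 508 to 591 and 392 to 606, and heart markers at 11.7 to 44.2 and 15.1 to 52.5. The groups overlap for each of these sums. Among the tested markers 1 gene passed (limma), Col1a1, a collagen of fibroblasts, against 1.03% of all genes tested. It was at 3688, 3799 and 1954 in the WT muscles against 7278, 7411 and 8958 in the Dock3 KO muscles, a log2 difference of 1.38, while the fibroblast markers Pdgfra, Dcn and Lum differed by 0.15, -0.28 and -0.48 and did not pass.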

How the data were processed

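RNA of 6 muscles was depleted of ribosomal RNA and sequenced as read pairs from stranded libraries, per the labels' protocols. The submitters' processing notes name FastQC, Trim Galore 0.4.5, Salmon 0.12.0, DESeq2 1.22.1, R 3.5.3 and the builds mm10 and GRCm38, without roles. The deposited table holds normalized counts, a signal per gene that is neither whole nor of fixed sum. Only 16.4% to 24.4% of values under 20 were within 0.01 of a whole multiple of 1 read, so no count test was run and no counting interval is given.

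All 54393 identifiers matched GENCODE M21. Values were taken as log2(normalized count + 1), kept at a mean of at least 10, and compared with limma 3.58.1 in R 4.3.3 (trended prior), with Benjamini-Hochberg adjustment over all genes tested. On simulated data for 16031 genes, 33 of 100 genes changed by 1 on the log2 scale and 84 of 100 changed by 3 were called, with 5 unchanged genes. Shares and ratios were compared with exact permutation tests in scipy 1.17.1. Coding sequences were aligned with mafft 7.526.

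Members, lists and naming rule were chosen with earlier results of these data known. The rule names all members, genes that overlap them, passing genes of each list or else its 2 of smallest p, and the 3 most similar genes for 4 members. 1 gene that it names is not reported here. Beyond the rule, genes named for their position or their values were chosen afterwards. Replicate numbers were not used to pair samples, except in the replicate block. Alternatives were other pseudocounts (0.1, 10), filters, scalings, priors, a Gm42418 covariate, a replicate block and leaving out samples.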

Additional observations from a re-analysis of the deposited data

How the results depend on the processing

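The number of myosin heavy chain genes past the threshold was 0 under all 18 alternatives, of which leaving out both Dock3 KO replicates 1 and 2 and rescaling to the total without Gm42418 and Lars2 were chosen after seeing the data. The count of companion genes past the threshold, 1 with all samples, was 3 with no filter, with rescaling to the same total and with rescaling without Gm42418 and Lars2 (Actc1, Mymx and Ncam1 each time), 0 with a pseudocount of 0.1, with quantile normalization and without Dock3 KO replicates 1 and 2, and 0 to 1 when 1 sample was left out. Unadjusted counts are given above for each list, and the cause of these changes was not tested. With 1 Dock3 KO sample left, that sample is assumed to vary like the WT samples.

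With rescaling to the same total the median of all genes moved to -0.28, which bears on each sign under that setting. Signs turned for Myh4 with rescaling to the same total (-0.088), quantile normalization (-0.0040), the Gm42418 covariate (-0.033) and the replicate block (-0.046). They turned for Myh7b (0.10), Myh3 (0.051) and Myh8 (-0.0033) with the Gm42418 covariate, for Myh8 (-0.14) and Myom1 (-0.086) with rescaling to the same total, and for Myhas with rescaling to the same total (-0.18), the covariate (-0.30), without Dock3 KO replicates 1 and 2 (-0.24) and rescaled without Gm42418 and Lars2 (-0.013). Leaving out 1 sample gave log2 differences of 0.24 to 0.69 for Myh1 and 0.37 to 0.86 for Myh2, and moved Myh7 from -0.15 to 1.88, Myh7b from -0.87 to 0.078 and Myhas from -0.023 to 0.26. None of these passed the threshold in either direction. Unadjusted p (limma) was under 0.05 for Myh1 with the Gm42418 covariate (0.0042), without Dock3 KO replicate 1 (0.0090) and with a robust prior (0.047). For Myh2 it was so without WT replicate 3 (0.0016) or Dock3 KO replicate 1 (0.031), with no filter (0.031) and with the covariate (0.044). For Myh7 it was so without Dock3 KO replicate 1 (0.030), and for Myh6 without WT replicate 3 (0.014).

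The number of shares without overlap, 0 of 8, was 0 to 2 when 1 sample was left out. Over those fits the difference in share was -4.15 to 0.19 points for Myh4, -0.26 to 3.57 for Myh1, -0.051 to 0.989 for Myh2, -0.0024 to 0.0211 for Myh7, -0.00229 to 0.00033 for Myh8 and -0.0044 to 0.00865 for Myh6. The log2 ratio to Myh4 differed by -0.027 to 0.45 for Myh1, by 0.037 to 0.75 for Myh2 and by -0.24 to 1.65 for Myh7. The share of Myh8 turned to 0.00077 with the replicate block.

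The replicate block, over the shared numbers 1 and 3, gave 127 genes called against 165, no myosin gene, and 1 companion gene, Ankrd1. Deviations of same-numbered samples correlated at 0.065 and 0.0066 over all genes tested. These correlations were not set beside those of samples with unlike numbers, so they cannot decide whether samples were paired. Nor can they exclude a pairing that moves few genes. Counts over all genes were 57 with the Gm42418 covariate, 49 without Dock3 KO replicates 1 and 2, 104 with a prior without trend and 98 to 159 when 1 sample was left out. The 5 low genes rested on no more than 212 estimated reads per sample. The part of depth in their spread was not tested.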
